A study of Mus musculus with 6 samples.

Results

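The genes described here belong to the insulin-like growth factor (IGF) axis: the ligand gene Igf1, the binding protein genes Igfbp3, Igfbp4 and Igfbp7, the receptor genes Igf1r, Insr and Igf2r, and the adaptor genes Irs1 and Irs2. They were picked by symbol as 9 of the 19973 genes in the table, and each symbol matched 1 row. The list was drawn up with the difference between old and young libraries in view, so that difference is given for the 9 genes as a description, without a test. The libraries hold messenger RNA of adherent peritoneal macrophages from male C57BL/6 mice, an inbred laboratory strain, aged 18 months (old, 3 libraries) or 2 months (young, 3 libraries). All mice of both ages had received 200 µg of zymosan A (ZymA), a yeast cell wall particle, into the peritoneal cavity, and lavage cells were taken 72 hours later. In both groups the cells were cultured overnight in L-cell medium, a source of the macrophage growth factor CSF-1, unattached cells were rinsed off, and those left on the plate spent 6 hours in the vehicle, phosphate-buffered saline. Cultures given resolvin D2, the lipid named in the series title, were not analysed here. The design text gives 3 mice per group and triplicate sequencing per mouse and does not tie either to a library, so the spread between libraries, and every p-value, may be partly technical. Where values of single libraries are listed, they stand in the order of replicates 1, 2 and 3.

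IGF-1 is a secreted growth factor that activates the tyrosine kinase IGF-1 receptor, a close relative of the insulin receptor. Both receptors phosphorylate the adaptors IRS1 and IRS2, which start the PI3-kinase, AKT and mTOR cascade and, through other adaptors, the RAS and MAP kinase cascade, and AKT keeps FOXO transcription factors out of the nucleus. A family of high-affinity binding proteins holds IGFs in the extracellular space and is cut by proteases such as PAPP-A, while the IGF-2 receptor carries no kinase and sorts mannose 6-phosphate-tagged enzymes to the lysosome. Tissue macrophages are a known local source of IGF-1.

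Read totals were between 8163000 and 13008000 per library and did not separate the ages. All 8 macrophage markers were present, with Csf1r at 19751 normalized counts (reads divided by a size factor per library) in old and 16537 in young libraries and Adgre1, which encodes F4/80, at 9093 and 7431. The 5 markers of large peritoneal macrophages summed to 178 to 244 in old and 125 to 166 in young libraries, with 2 past the test as higher (Selp and Tgfb2) and the defining Gata6 and Timd4 at 9.99 and 10.4 in old and at 14.9 and 9.52 in young. Those of small peritoneal macrophages summed to 4788 to 6972 against 2352 to 2704, mostly Cd74 (5645 in old and 2222 in young). Of these 5 markers 2 passed as higher, Cd74 and Irf4 (111 and 18.2), while Ccr2 (290 and 300) did not pass. On the second principal component, with 18.2% of the variance, old replicate 3 and young replicate 3 lay at opposite ends (-37.7 and 25.3), and non-mitochondrial ribosomal RNA took 1.34% of reads in old replicate 3 against 0.0177% to 0.154% elsewhere. Results below that rest on these libraries are given with and without them. Of the 7 B cell markers 7 passed the test as higher in old, with a summed level of 1369 to 2944 in old and 51.8 to 59.3 in young libraries. Of the 6 mast cell markers 5 passed as higher, with 527 to 592 against 38.2 to 62.3. Both neutrophil markers with values passed as higher (993 to 1101 against 488 to 496). T or NK cell markers, all below the filter, summed to 38.1 to 63.3 against 4.23 to 9.05, and those of dendritic cells (14.0 to 21.5 against 9.30 to 14.1) and eosinophils (8.89 to 16.2 against 6.04 to 14.9) were low at both ages. Their part in the results was not tested. The 7 mesothelial markers with values summed to 5.08 to 14.5 in old and 6.04 to 11.0 in young, so cells of the peritoneal lining gave few reads.

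Among the 9 genes, the old and young libraries did not overlap for 5, namely Igf1, Igf1r and Igf2r, higher in old, and Igfbp4 and Irs2, lower in old. Over all 11795 genes with a mean of at least 10, the ages did not overlap for 47.5% (24.0% higher and 23.6% lower in old), and limma (Benjamini-Hochberg adjusted p under 0.05) called 35.5% (17.9% higher and 17.6% lower). Since the list was chosen from this same comparison, nothing is read from the count. The 4 genes whose ages overlapped were Insr, at an intermediate level, and Igfbp3, Igfbp7 and Irs1, each with 18 or fewer reads in every library. Of the 9 genes 7 reached a mean of 10, and Igfbp3 and Irs1 did not. In bulk RNA, fewer cells that express a gene and less RNA per cell cannot be told apart.

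**Figure D1:**
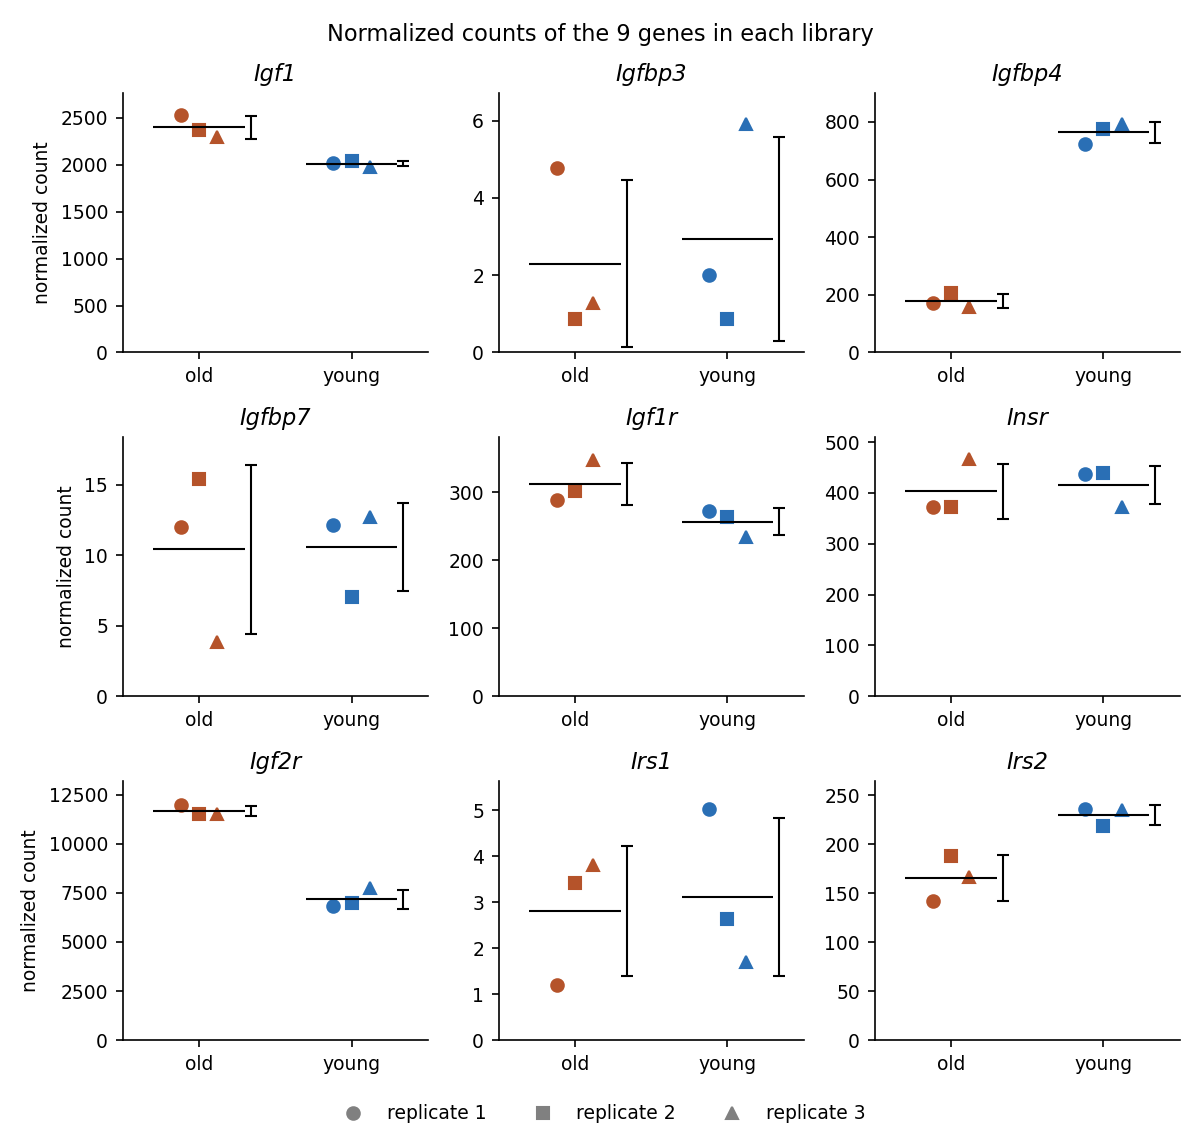
Normalized counts of the 9 genes in each library (vertical axes from 0, a different scale per gene). Symbols are replicates, horizontal lines are means and vertical bars are ± 1 SD over 3 libraries. Igfbp4 is at 157 to 205 in old and 723 to 792 in young libraries, Igf2r at 11523 to 11956 in old and 6827 to 7730 in young, while the ages overlap for Insr.

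Igf1, the only ligand gene with more than a few reads, is on chromosome 10 (GRCm 38, 87858265 to 87937042, plus strand). It had 2529, 2376 and 2292 normalized counts in the old libraries and 2016, 2036 and 1982 in the young ones. Every old library lay above every young one, yet the gap was small, with means of 2399 ± 120 and 2011 ± 26.9 (SD, n = 3 each), or 1.19-fold. The difference of 0.25 on the log2(normalized count + 1) scale was in the middle of the table, since 48.4% of tested genes had a smaller absolute difference. The 3 young libraries were close together. Their coefficient of variation was 1.34%, lower than in all but 4.20% of the 500 genes nearest in level, whereas that of the old libraries was 4.99%, with 37.0% of like genes below it. Igf2, the gene of the other IGF ligand, had 0 reads in each old library, which allows up to 3 reads in each, and 1, 2 and 0 reads in the young libraries. Insulin genes and the acid-labile subunit gene were not analysed here.

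Igfbp4, whose protein binds IGFs and is the main substrate of the protease PAPP-A, had the widest gap between the ages among the 9 genes. It lies on chromosome 11 (99041244 to 99054392, plus strand). The old libraries had 173, 205 and 157 normalized counts, and the young ones 723, 776 and 792. The lowest young library was far above the highest old one. Means were 179 ± 24.3 and 764 ± 35.8 (SD, n = 3 each), a ratio of 4.27 in favour of young, and a log2 difference of -2.10 that was larger in size than that of 97.3% of tested genes. The difference was -1.98 without the libraries numbered 3 and -2.32 between those libraries alone. Of 8 fibroblast markers 2 passed as higher in old, Col3a1 (203 against 111 normalized counts) and Pdgfra (49.1 against 21.1), and 1 as lower, Col1a1 (159 against 253). The list summed to 2646 to 3198 in old and 2496 to 2966 in young libraries, most of it from Pdpn (2237 and 1959), with Lum and Postn under 1 at both ages. Its part in the Igfbp4 difference was not tested.

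Igfbp3, the gene of the main IGF carrier of blood plasma (chromosome 11, 7206086 to 7213923, minus strand), had very few reads. The old libraries had 4, 1 and 1 reads, and the young ones 2, 1 and 7. The ages overlapped, and at this depth no difference was detectable. Igfbp7, a low-affinity IGF-binding relative that is secreted into vessel walls and matrix (chromosome 5, 77349240 to 77408041, minus strand), had 10, 18 and 3 reads in old and 12, 8 and 15 in young. Means were 10.4 ± 5.95 and 10.6 ± 3.11 normalized counts (SD, n = 3 each), with overlapping ages. Of its exon bases 85 (7.03%) are shared with Polr2b on the opposite strand, a gene at 1106 normalized counts, and without knowledge of strand those reads cannot be assigned. Endothelial markers mark a usual source of Igfbp7, and 4 of 7 had values. They summed to 458 to 496 normalized counts in old and 344 to 401 in young libraries. Vwf (162 in old and 74.9 in young) and Pecam1 (25.2 and 7.26) passed as higher in old. Kdr (274 and 254), the largest part of the sum, and Cdh5 (14.9 and 27.3) did not pass. The part of endothelial cells in the Igfbp7 reads was not tested.

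The other binding protein genes with values were rare too. Igfbp6, whose protein prefers IGF-2, had 13, 12 and 5 reads in old and 9, 6 and 6 in young libraries. Igfbp5 had 1, 2 and 2 against 0, 0 and 1. The counts allow no statement on age for either. Per kilobase of merged exons, the scale used here to compare genes, Igfbp3, Igfbp4, Igfbp5 and Igfbp6 together had 42.2 to 56.2 normalized counts in old and 173 to 186 in young libraries. Igfbp4 made up 71.4%, 82.6% and 84.5% of that sum in the old libraries and 94.9%, 97.2% and 96.5% in the young ones. The Igfbp4 transcript was thus the main one of these 4 binding protein genes at both ages. Igfbp1 and Igfbp2 were not analysed here.

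Set against the ligand within the same library, Igf1 was 6.51, 5.16 and 6.49 times the Igfbp4 level per kilobase in the old libraries. In the young libraries the ratio was 1.24, 1.17 and 1.12. The ratio was higher in every old library, and most of the gap came from Igfbp4, as Igf1 itself differed 1.19-fold.

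**Figure D2:**
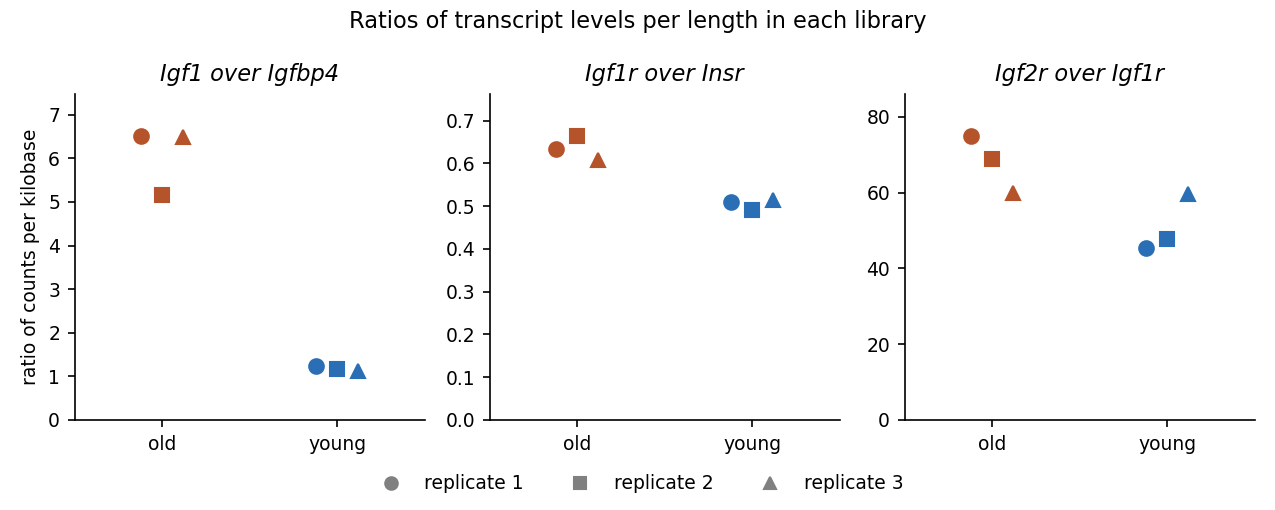
Ratios of normalized counts per kilobase of merged exons in each library (vertical axes from 0); symbols are replicates. The Igf1 to Igfbp4 ratio is 5.16 to 6.51 in old and 1.12 to 1.24 in young libraries, the Igf1r to Insr ratio 0.609 to 0.664 against 0.491 to 0.514, and the Igf2r to Igf1r ratio 60.0 to 74.9 against 45.3 to 59.6.

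Among the receptors, Igf1r encodes the tyrosine kinase receptor of IGF-1 (chromosome 7, 67952827 to 68233668, plus strand). It had 288, 302 and 347 normalized counts in the old libraries and 272, 263 and 234 in the young ones. The highest young library was only a little below the lowest old one. Means were 312 ± 30.7 and 256 ± 19.7 (SD, n = 3 each), 1.22-fold. The extremes came from the libraries numbered 3, and the log2 difference was 0.28 with all libraries, 0.14 without these and 0.56 between these alone.

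Insr, the insulin receptor gene (chromosome 8, 3122061 to 3279617, minus strand), showed the libraries numbered 3 most plainly. Old replicates 1 and 2 both had 372 normalized counts and old replicate 3 had 466, whereas young replicates 1 and 2 had 437 and 439 and young replicate 3 had 373. Each library numbered 3 stood at the level of the other age. Means over all libraries were 403 ± 54.5 and 416 ± 37.5 (SD, n = 3 each), a log2 difference of -0.05. Without the libraries numbered 3 it was -0.23, with 372 against 438, and between those alone it was 0.32. Direction and size of the Insr difference therefore depended on which replicates were used.

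The ratio of the kinase receptors moved less between replicates. Igf1r per kilobase was 0.634, 0.664 and 0.609 times Insr in the old libraries and 0.509, 0.491 and 0.514 times in the young ones. The ages did not overlap, and replicate 3 was no longer apart from its group. Insr was above Igf1r in every library on this scale.

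Igf2r, the gene of the IGF-2 and cation-independent mannose 6-phosphate receptor (chromosome 17, 12682406 to 12769664, minus strand), was the most abundant of the 9 genes. The old libraries had 11956, 11529 and 11523 normalized counts and the young ones 6827, 6978 and 7730. The ages were far apart, and the coefficient of variation of the old libraries was 2.13%, lower than in all but 7.80% of genes of like level. Means were 11670 ± 248 and 7178 ± 484 (SD, n = 3 each), 1.63-fold, a log2 difference of 0.70. It was 0.77 without the libraries numbered 3 and 0.58 between them. Under quantile normalization, which forces all libraries to the same distribution, the difference fell to 0.40, while the median of all genes moved to 0.03. Of the 8 macrophage markers 6 passed the test as higher in old, with a summed level of 345257 to 430483 in old and 274834 to 349804 in young libraries, most of it from Lyz2. Their part in the Igf2r and Igf1 differences was not tested.

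**Figure D3:**
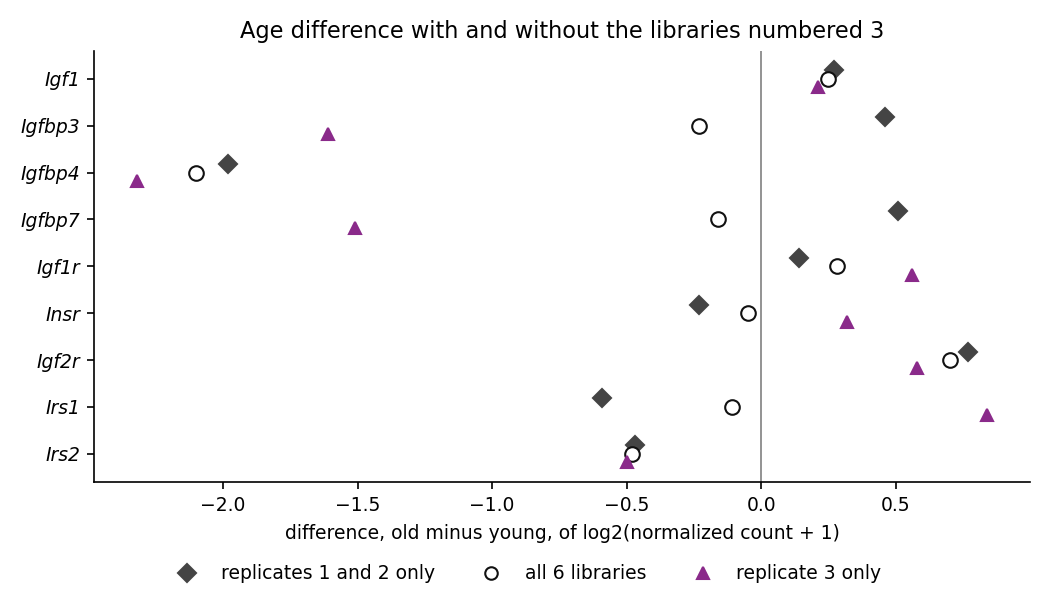
Difference, old minus young, of mean log2(normalized count + 1) for each gene, from replicates 1 and 2 (diamonds), all libraries (circles) and replicate 3 alone (triangles). Igf1, Igf2r, Igfbp4, Irs2 and Igf1r keep their direction, as genes whose ages do not overlap must. Insr goes from -0.23 to 0.32, and Igfbp3, Igfbp7 and Irs1, with few reads, also change direction.

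The adaptors IRS1 and IRS2 are docking proteins that carry the signal from both kinase receptors to PI3-kinase. Irs2 (chromosome 8, 10984681 to 11008458, minus strand) had 142, 188 and 166 normalized counts in the old libraries and 236, 218 and 235 in the young ones. Every old library was below every young one. Means were 166 ± 22.9 and 230 ± 10.4 (SD, n = 3 each), young over old 1.39-fold, and the log2 difference of -0.48 was nearly the same without the libraries numbered 3 (-0.47) and between those alone (-0.50). Irs1 (chromosome 1, 82233101 to 82291416, minus strand) had 1, 4 and 3 reads in old and 5, 3 and 2 in young libraries. The reads were too few for any statement on age. Per kilobase, Irs2 was at 26.2 ± 3.63 in old and 36.3 ± 1.65 in young libraries and Irs1 at 0.307 ± 0.154 and 0.341 ± 0.188, so nearly all IRS transcripts were Irs2 at both ages. Of the Irs1 exon bases 30.9% are shared with a gene model on the opposite strand, Gm9747, so even its few reads are uncertain.

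The promoters of both adaptor genes are shown because the pair differed widely in level while sharing a short element. Each stretch holds the 250 bases before the gene's start in RefSeq (GRCm38.p6), 5′ to 3′ on the strand of the gene. Irs1 is at chr1:82291440-82291689 and Irs2 at chr8:11008930-11009179, both on the minus strand. Capitals mark TGTTTTG, the insulin response sequence that FOXO factors can bind, and CACGTG, an E-box, each searched on both strands. CACGTG was added after the sequences had been read.
Irs1: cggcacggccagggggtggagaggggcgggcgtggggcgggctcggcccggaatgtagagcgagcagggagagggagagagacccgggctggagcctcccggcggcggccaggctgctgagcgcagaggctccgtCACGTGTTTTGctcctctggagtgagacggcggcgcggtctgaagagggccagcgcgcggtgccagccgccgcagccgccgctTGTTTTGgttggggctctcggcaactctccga
Irs2: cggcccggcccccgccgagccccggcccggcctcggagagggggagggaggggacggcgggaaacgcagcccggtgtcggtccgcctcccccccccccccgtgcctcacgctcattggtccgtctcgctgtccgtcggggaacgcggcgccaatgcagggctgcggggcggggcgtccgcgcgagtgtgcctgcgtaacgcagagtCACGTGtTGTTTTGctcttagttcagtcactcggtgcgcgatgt
In Irs1 the E-box at -115 to -110 and the insulin response sequence at -111 to -105 overlap, and a second TGTTTTG is at -32 to -26. In Irs2 the E-box at -44 to -39 and TGTTTTG at -37 to -31 stand next to each other. Of 32851 windows from 250 bases before to 50 after a start, 6.28% hold TGTTTTG and 7.15% hold CACGTG, and of the 8 windows here (all genes but Insr) 2 and 3 do. A match is a description of letters and no evidence of binding.

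The promoters of Igf2r and Igfbp4, which had the widest gaps between the ages among the 9 genes, follow for comparison. Igf2r is at chr17:12769707-12769956 on the minus strand and Igfbp4 at chr11:99040994-99041243 on the plus strand, from the same table, with the same capitals.
Igf2r: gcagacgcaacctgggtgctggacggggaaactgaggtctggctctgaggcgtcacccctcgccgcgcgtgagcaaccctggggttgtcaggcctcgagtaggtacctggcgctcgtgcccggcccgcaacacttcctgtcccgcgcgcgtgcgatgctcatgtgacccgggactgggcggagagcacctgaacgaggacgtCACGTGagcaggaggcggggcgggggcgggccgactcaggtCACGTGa
Igfbp4: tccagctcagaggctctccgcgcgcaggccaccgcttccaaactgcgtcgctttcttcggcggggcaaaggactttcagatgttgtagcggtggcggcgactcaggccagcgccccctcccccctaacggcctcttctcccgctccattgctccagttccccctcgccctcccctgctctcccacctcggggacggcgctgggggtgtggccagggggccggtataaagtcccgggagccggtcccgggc
Igf2r holds CACGTG at -48 to -43 and at -7 to -2, and Igfbp4 holds neither element. The GC box GGGCGG, a site of the general factor SP1, was in 5 of the 8 windows (35.7% of all windows), those of Igf1r, Igf2r, Igfbp7, Irs1 and Irs2. The AP-1 motif TGANTCA was in 1, that of Igf1 at -37 to -31 (7.81% of all windows). The forkhead motif TGTTTAC (3.65% of all windows) and the cyclic AMP response element TGACGTCA (1.79%) were in 0 of the 8. The Igf1 stretch was 52.8% G and C, and the other 7 genes had 69.2% to 77.6%. The Igf1 stretch (chromosome 10, 87860861 to 87861110) lies inside the gene as placed above, so its RefSeq start is not the start given there. For some other genes, among them Igf1r and Irs2, the RefSeq start also differs from the one given above.

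Per kilobase, the order in old libraries was Igf2r at 1254 ± 26.7 normalized counts, Igf1 at 242 ± 12.1, Igfbp4 at 40.5 ± 5.50, Insr at 29.3 ± 3.96, Irs2 at 26.2 ± 3.63, Igf1r at 18.6 ± 1.83, Igfbp7 at 8.59 ± 4.92, Igfbp3 at 0.735 ± 0.689 and Irs1 at 0.307 ± 0.154 (SD, n = 3). In young libraries it was Igf2r at 771 ± 52.0, Igf1 at 203 ± 2.72, Igfbp4 at 173 ± 8.11, Irs2 at 36.3 ± 1.65, Insr at 30.3 ± 2.73, Igf1r at 15.3 ± 1.17, Igfbp7 at 8.76 ± 2.57, Igfbp3 at 0.938 ± 0.844 and Irs1 at 0.341 ± 0.188. The order differed only in Insr and Irs2, which in old libraries were within 1 SD of each other. Igfbp3 and Irs1 were within 1 SD of each other at both ages. The receptor for lysosomal sorting, Igf2r, was 60.0 to 74.9 times the Igf1r level in old and 45.3 to 59.6 times in young libraries.

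**Figure D4:**
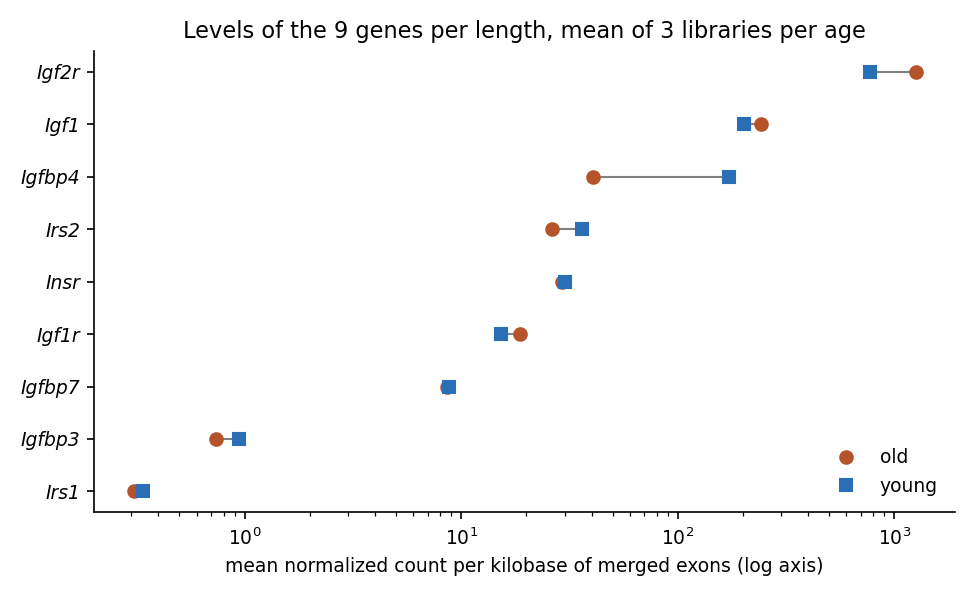
Mean normalized count per kilobase of merged exons (log axis) for each of the 9 genes, circles for old and squares for young, 3 libraries each. Igf2r is highest at 1254 and 771, Irs1 lowest at 0.307 and 0.341, and Igfbp4 has the widest gap, 40.5 against 173.

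The genes whose profile over the 6 libraries was most like each of the 9 were found by Pearson's r of log2(normalized count + 1) among 9326 protein-coding genes with a mean of at least 50. The libraries, their depth and the age difference are shared by all genes, and with 6 points r is high for many of them, so the values are a description. Igf2r was nearest to Crebrf (r = 0.9997), Ptprj (0.9994) and Tmem62 (0.9992). Igfbp4 was nearest to Gtse1 (0.9996), Mtus1 (0.9996) and Ccnb1 (0.9993). The log2 differences of Gtse1, Mtus1 and Ccnb1 were -1.90, -2.49 and -2.91. Gtse1 and the cyclin gene Ccnb1 act in the G2 phase and mitosis, and a link of Igfbp4 to the cell cycle was not tested. Igf1 was nearest to March1 (0.9975), Csrnp1 (0.9972) and Lrp11 (0.9971). Irs2 was nearest to Wdpcp (0.9953), Pias4 (0.9932) and Enkd1 (0.9930). Igf1r was nearest to Zfp971 (0.9934), Lpp (0.9931) and Cdk6 (0.9930), and Insr to Trim56 (0.9967), Ccnt2 (0.9950) and Tet2 (0.9947). For the 3 genes with few reads the best values were 0.9876 for Igfbp3 with Zfp526, 0.9882 for Igfbp7 with Dnajc21 and 0.9934 for Irs1 with Mfsd13a, and these rest on sampling noise in part.

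The rest of the pathway was taken from 12 lists of 175 genes, none of them among the 9. Of these, 156 had values and 139 were tested, 26 were higher and 30 lower in old (limma, adjusted over all 11795 tested genes, threshold 0.05), that is 40.3% against 35.5% of all tested genes. Their median log2 difference was 0.00, as in the whole table. Genes of the pathway moved in both directions. By list, the share of tested genes past the threshold ran from 0.00% (proteases) to 63.6% (partners of binding proteins). The lists were chosen with earlier results of these data known, so nothing is read from these shares. Without both libraries numbered 3, 49 were higher and 39 lower. Without old replicate 1, 21 were higher and 18 lower. Calls over all genes moved with them, from 4183 to 6960 without both libraries numbered 3 and, with single libraries left out, to 3025 (old replicate 1), 3138 (old replicate 2), 5660 (old replicate 3), 3230 (young replicate 1), 2940 (young replicate 2) and 3997 (young replicate 3). The list counts below with libraries left out stand against these. Leaving out both libraries numbered 3 was added after seeing the data and keeps only replicates 1 and 2 of each age. Its calls and p-values below are therefore a description. Every adjusted p below is from limma.

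**Figure D5:**
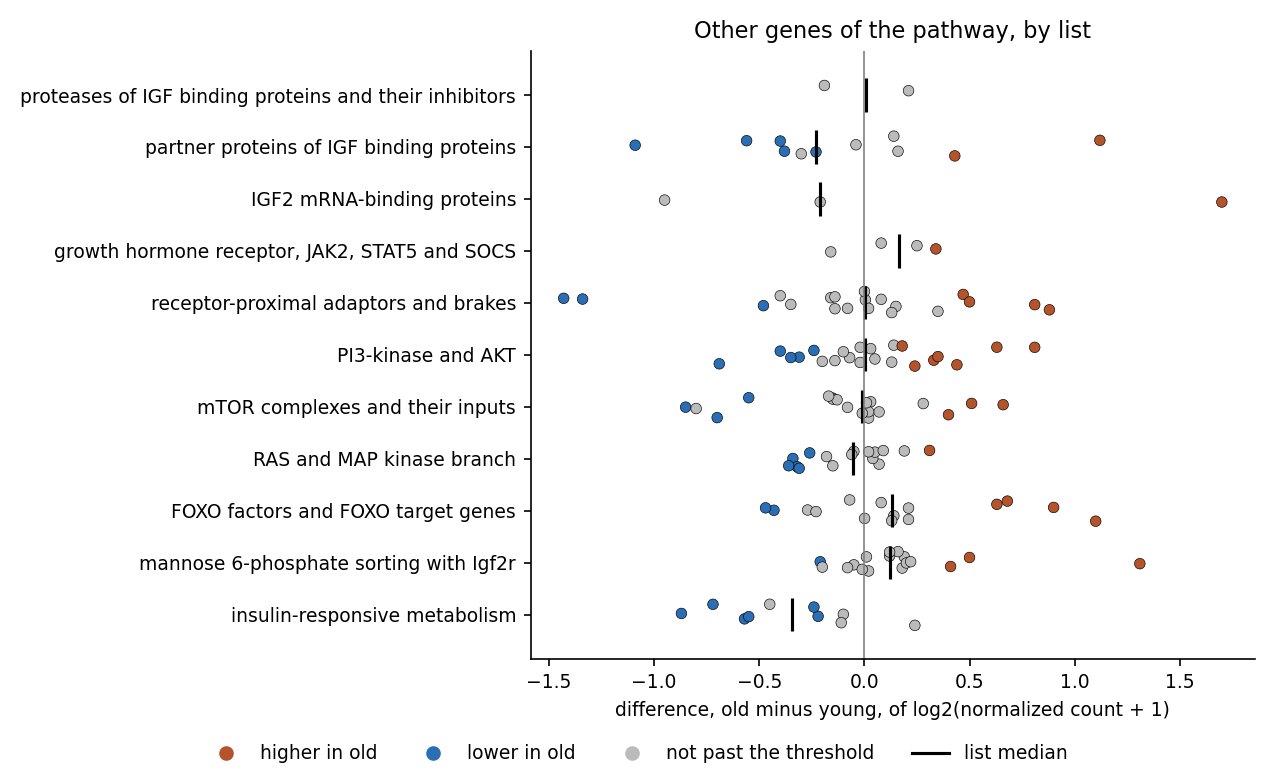
Log2 difference, old minus young, of each tested gene of the pathway lists (points, spread vertically for display); orange is higher and blue lower in old past the threshold, grey is not past it, and black bars are list medians. All 6 genes past the threshold in insulin-responsive metabolism are lower in old, and the highest point is Igf2bp2 at 1.70.

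Of the proteases that free IGFs from their binding proteins, and their inhibitors, most were rare or without values. Of 11 genes in this list 2 were tested and 0 passed in limma and 1 had an unadjusted p under 0.05. Adam9, a membrane protease, was at 2511 ± 119 normalized counts in old and at 2867 ± 163 in young (SD, n = 3 each; limma adjusted p = 0.0623), and passed as lower under quantile normalization (0.00212; range over all alternatives 0.00212 to 0.228). Plau, the urokinase gene, had 5106 ± 664 and 4394 ± 468 (adjusted p = 0.169), and passed as higher without old replicate 3 (0.00722) and without both libraries numbered 3 (5.67e-07; range over all alternatives 5.67e-07 to 0.513). PAPP-A and its inhibitor stanniocalcin-2 (Pappa and Stc2) were below the filter.

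Proteins that bind the binding proteins, among them integrins and TGF-beta receptors, had calls in both directions. Of 11 tested genes 5 were lower and 2 higher in old, with a median of -0.23. Itgav, the integrin alpha-V gene, was at 2337 ± 165 normalized counts in old and at 3442 ± 111 in young (SD, n = 3 each), a log2 difference of -0.56 (limma adjusted p = 0.000299). Tgfbr1 (-0.38) and Itga5 (-0.40) were lower too. Itgb3, the partner chain of integrin alpha-V, was higher in old, with 37.3 ± 3.67 against 16.7 ± 2.68. Itga5 lost its call without old replicate 1 (adjusted p = 0.056; range over all alternatives 1.54e-08 to 0.0614). Lrp1 (51472 ± 7077 and 63141 ± 2095) and Cd93 (10028 ± 610 and 9123 ± 617), whose product binds IGFBP7, did not pass. Lrp1 passed as lower under quantile normalization (adjusted p = 0.0135), without old replicate 3 (0.0116) and without both libraries numbered 3 (2e-05; range over all alternatives 2e-05 to 0.323). Cd93 passed as lower under quantile normalization (-0.17; adjusted p = 0.0163) and as higher without both libraries numbered 3 (0.24; adjusted p = 0.000386; range over all alternatives 0.000386 to 0.513). The 7 calls of this list became 3 without old replicate 1 and 4 when old replicate 2, young replicate 1 or young replicate 2 was left out.

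Of the proteins that bind Igf2 mRNA, Igf2bp2 was higher in old. The old libraries had 212, 269 and 234 normalized counts and the young ones 86.5, 71.1 and 61.7. The ages were well apart, with means of 238 ± 29.1 and 73.1 ± 12.5 (SD, n = 3 each), 3.26-fold, and a log2 difference of 1.70 ± 0.15 (SE; limma adjusted p = 2.67e-05). Its relative Igf2bp3 did not pass, at 7.92 ± 0.882 against 16.6 ± 4.53 (adjusted p = 0.0767; 0.016 without the trend, in a range over all alternatives of 0.016 to 0.219), and 18.7% of its exon bases are shared with Malsu1 on the opposite strand. Hmga2, which activates Igf2bp2 transcription in other cells, had 61.3 ± 13.3 and 70.7 ± 13.5 (adjusted p = 0.457; 0.0363 without both libraries numbered 3, in a range of 0.0363 to 0.858). The list had 1 call of 3 tested genes, and 2 without both libraries numbered 3.

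The growth hormone input to Igf1 could be followed only in part. The receptor gene Ghr had 0, 1 and 0 reads in old and 1, 1 and 0 in young libraries. It and the feedback genes Cish, Socs1 and Socs2 were below the filter. A link of the values below to growth hormone was not tested. Stat5a, a transcription factor that drives Igf1 in liver, was the 1 call of 4 tested genes, at 318 ± 3.73 normalized counts in old and 252 ± 5.62 in young (SD, n = 3 each; limma adjusted p = 0.00775). Stat5b (595 ± 8.55 and 564 ± 11.0) and the kinase gene Jak2 (753 ± 11.7 and 839 ± 37.9) did not pass. Without both libraries numbered 3 there were 2 calls.

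Among adaptors and brakes at the receptors, 4 of 20 tested genes were higher and 3 lower in old, with a median of 0.00. Enpp1, a membrane enzyme known to inhibit the insulin receptor, was lower. It had 296, 295 and 246 normalized counts in the old libraries and 731, 730 and 790 in the young ones. The ages were far apart, with a log2 difference of -1.43 ± 0.09 (SE; limma adjusted p = 3.22e-06). Higher in old were Dok2 (0.88) and Dok1 (0.50), docking proteins that restrain RAS signalling, and the ubiquitin ligase gene Cblb (0.81). The abundant scaffold gene Rack1 had 9237 ± 1094 and 9096 ± 770 and the adaptor gene Crk 1619 ± 29.6 and 1619 ± 59.6, and neither passed. Rack1 passed as lower under quantile normalization (-0.28; adjusted p = 0.00428) and as higher without both libraries numbered 3 (0.19; adjusted p = 0.00341; range over all alternatives 0.00341 to 0.966). Without both libraries numbered 3 the list had 12 calls in place of 7.

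The PI3-kinase and AKT list had 12 calls among 22 tested genes, 7 higher and 5 lower in old, and a median of 0.01. Pik3ap1, an adaptor of PI3-kinase in immune cells, was at 3256 ± 76.5 normalized counts in old and at 1855 ± 53.9 in young (SD, n = 3 each), a log2 difference of 0.81 (limma adjusted p = 9.01e-06). For the G protein-coupled PI3-kinase gamma, the regulatory subunit gene Pik3r5 was higher (0.63) and the catalytic subunit gene Pik3cg lower (-0.40). The phosphatase gene Inpp5d (SHIP1) was lower, at 4431 ± 80.4 against 5488 ± 272. Akt1 (2714 ± 196 and 2846 ± 69.7) did not pass, except as lower under quantile normalization (adjusted p = 0.0259; range over all alternatives 0.0259 to 0.97). The 12 calls became 7 when old replicate 1 or young replicate 3 was left out and 6 without young replicate 2.

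In the mTOR list 3 of 19 tested genes were higher and 3 lower in old, with a median of -0.01. Eif4ebp1, a translation repressor that mTOR inactivates, had 442, 529 and 417 normalized counts in the old libraries and 826, 782 and 895 in the young ones. No old library reached a young one (-0.85; limma adjusted p = 0.000161), and its relative Eif4ebp2 was lower too (-0.55). Of the sestrin genes, whose products restrain mTOR complex 1, Sesn1 was higher (0.66) and Sesn2 lower (-0.70) in old. Sesn3, at 68.0 ± 10.3 normalized counts in old and 67.1 ± 1.58 in young, did not pass. The core parts Rptor (873 ± 14.6 and 924 ± 62.3) and Tsc2 (884 ± 37.8 and 890 ± 38.4) did not pass.

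In the RAS and MAP kinase branch 5 of 16 tested genes were lower and 1 higher in old, with a median of -0.05. Mapk3, which encodes ERK1, was at 730 ± 50.9 normalized counts in old and at 935 ± 24.1 in young (SD, n = 3 each; limma adjusted p = 0.00424). The kinase gene Braf was lower (-0.32). Spred1, an inhibitor of RAS signalling, was higher (0.31). Nras (2830 ± 197 and 2762 ± 211) and Rps6ka3 (1939 ± 143 and 2145 ± 28.0) did not pass. Rps6ka3 passed as lower without old replicate 3 (adjusted p = 0.0171) and without both libraries numbered 3 (0.00173; range over all alternatives 0.00173 to 0.363). Nras passed as higher without both libraries numbered 3 (0.0246; range 0.0246 to 0.989). The 6 calls became 3 when old replicate 1 or young replicate 2 was left out and 11 without both libraries numbered 3, and Braf lost its call without old replicate 1 (adjusted p = 0.075), old replicate 2 (0.0567) or young replicate 2 (0.0818), in a range over all alternatives of 0.000136 to 0.0818.

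FOXO factors and genes known as FOXO targets gave 4 higher and 2 lower of 15 tested genes, with a median of 0.13. Txnip, which encodes a thioredoxin-binding protein that limits glucose uptake, had 5172, 5070 and 4431 normalized counts in the old libraries and 2169, 2259 and 2404 in the young ones. The old libraries were all above the young ones, 2.15-fold in the mean (1.10; limma adjusted p = 7.25e-06). Bcl2l11, the gene of the cell death protein BIM, was 1.87-fold, Klf6 1.60-fold and Cited2 1.55-fold higher in old. Foxo3 itself had 674 ± 3.86 and 674 ± 26.1 (SD, n = 3 each) and Bcl6 972 ± 79.6 and 841 ± 8.75, and neither passed. Bcl6 passed as higher without old replicate 1 (adjusted p = 0.0493) and without both libraries numbered 3 (0.0472; range over all alternatives 0.0472 to 0.174). The 2 genes of the list that passed as lower in old were Ccng2 (-0.43; limma adjusted p = 0.00869) and Bnip3 (-0.47; adjusted p = 0.0058). Irs2, also known as a FOXO target and given without a test, was lower in old too. Without both libraries numbered 3 the list had 10 calls in place of 6.

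The mannose 6-phosphate sorting list held genes for the tag and for protein sorting more widely. Of 17 tested genes 3 were higher and 1 lower in old, with a median of 0.12. Sorl1, a sorting receptor, had 388, 383 and 279 normalized counts in the old libraries and 145, 146 and 128 in the young ones. It was 2.51-fold higher in old, with no overlap (1.31; limma adjusted p = 7.76e-05). The retromer-associated gene Snx1 was 1.42-fold higher. The phosphotransferase that adds the tag was divided between its subunits. The gamma subunit gene Gnptg was higher (0.41) and the alpha and beta subunit gene Gnptab lower (-0.21). Both calls were close to the threshold (adjusted p = 0.0213 and 0.0311) and were lost without old replicate 1 (0.0853 and 0.0956), old replicate 2 (0.0726 and 0.0814), young replicate 1 (0.0649 and 0.0563) or young replicate 2 (0.0928 and 0.0794), Gnptab also without young replicate 3 (0.088). Over all alternatives the adjusted p ranged from 7.89e-05 to 0.0928 for Gnptg and from 0.0102 to 0.15 for Gnptab, and 49.5% of the Gnptg exon bases are shared with Unkl on the opposite strand. The other mannose 6-phosphate receptor gene, M6pr, had 4695 ± 510 and 4109 ± 462 (SD, n = 3 each) and the retromer gene Vps35 5377 ± 632 and 4665 ± 494, and neither passed. Both passed as higher without old replicate 3 (adjusted p = 0.0166 for M6pr and 0.0116 for Vps35) and without both libraries numbered 3 (2.6e-06 and 1.5e-06). Over all alternatives the range was 2.6e-06 to 0.554 for M6pr and 1.5e-06 to 0.531 for Vps35. The 4 calls became 2 when old replicate 1, old replicate 2, young replicate 1 or young replicate 2 was left out, 9 without old replicate 3 and 11 without both libraries numbered 3.

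Genes of the insulin-responsive metabolism list were lower where they passed with all 6 libraries. Whether insulin action differed was not tested. Of 10 tested genes 6 were lower and 0 higher in old, with a median of -0.35. Fasn, the fatty acid synthase gene, had 1520, 1593 and 1516 normalized counts in the old libraries and 2967, 2705 and 2809 in the young ones. The old libraries were close together and far below the young ones, 1.83-fold in the mean (-0.87; limma adjusted p = 8.26e-06). The hexokinase gene Hk2 was 1.64-fold, the glycogen synthase gene Gys1 1.48-fold and the acetyl-CoA carboxylase gene Acaca 1.47-fold higher in young. Hk1 (1488 ± 13.7 and 1614 ± 127) and Acly (3302 ± 302 and 2790 ± 202), the ATP citrate lyase gene, did not pass. Acly passed as higher in old without old replicate 3 (adjusted p = 0.00354), without young replicate 3 (0.0423) and without both (4.33e-06; range over all alternatives 4.33e-06 to 0.195).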

How the data were processed

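Messenger RNA of 3 old and 3 young macrophage libraries was analysed. Per the submitters' processing notes DESeq2 was used with the build mm10. Which aligner, counter, annotation release and strand setting were used is not given here. The deposited values are a signal per gene and library, reads divided by a size factor, made by the authors. Each column is made of whole multiples of 1 step, and 100% of values gave whole reads within 0.01 reads. For young replicate 1 the step was close to 1 and a separate check of its reads was not accepted, so no count test is reported, and reads are given only as a description. Libraries held 8163000 to 13008000 reads. A symbol was found for 19917 identifiers and for 56 there was none. Positions and exons come from GENCODE M21 on GRCm38, the assembly that mm10 names, and promoters from RefSeq, where 8 of 9 genes matched (not Insr).

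Run in R 4.3.3, limma 3.58.1 (prior variance with a trend) tested log2(normalized count + 1) of the 11795 genes with a mean of at least 10 (8178 were set aside), with Benjamini-Hochberg adjustment over all of them at 0.05. Differences are old minus young on that scale, which understates those of low genes, and folds are ratios of mean normalized counts. The script was tested on simulated data. The members and lists were chosen with earlier results of these data known. Named are all 9 genes, all ligand and binding protein genes with values, up to 4 passing genes of each other list with the smallest adjusted p, and 2 with the highest mean among those not passing; some items the rule selects are not reported here. Values outside this rule (markers, Pappa, Stc2, Ghr, Cish, Socs1, Socs2, Sesn3, Ccng2 and Bnip3) were looked up afterwards. Alternatives were quantile normalization, pseudocounts of 0.5 and 5, no trend, no filter, a minimum mean of 50, the replicate number as a block and each library left out. Added after seeing the data was leaving out both libraries numbered 3.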

Additional observations from a re-analysis of the deposited data

How the results depend on the processing

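Igf1, Igf2r, Igf1r, Igfbp4 and Irs2 kept the direction of their age difference under all 14 alternatives. Their ages did not overlap, so only quantile normalization could have changed that direction, and nothing is read from the other alternatives here. Values that moved by more than the spread between replicates were those of Igf1r (0.14) and Insr (-0.23) without both libraries numbered 3 and of Igf2r (0.40) under quantile normalization. With 1 library left out, Igf1r ran from 0.20 to 0.34, Insr from -0.16 to 0.01, Igf2r from 0.67 to 0.76 and Igfbp4 from -2.20 to -2.01.

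The replicate numbers did not pair the libraries. Deviations from the group means correlated at -0.38, -0.36 and -0.68 between same-numbered old and young libraries, and 0 of 3 numbers paired best with their own. With the replicate number as a block 2643 genes passed (1281 higher, 1362 lower), of the pathway genes 16 higher and 16 lower, and the calls were 3 for binding protein partners, 0 for growth hormone input, 4 for PI3-kinase and AKT, 1 for RAS and MAP kinase and 2 for mannose 6-phosphate sorting. Without both libraries numbered 3 it was 6960 genes (3573 higher, 3387 lower) and 49 pathway genes higher, with 1 call for proteases, 2 for Igf2 mRNA-binding proteins, 2 for growth hormone input, 12 for adaptors, 11 for RAS and MAP kinase, 10 for FOXO and 11 for mannose 6-phosphate sorting. Quantile normalization gave 1 call for proteases, and limma without the trend 2 for Igf2 mRNA-binding proteins. With 1 library left out, pathway genes lower in old numbered 18 to 36, calls for proteases 0 to 1, binding protein partners 3 to 8, PI3-kinase and AKT 6 to 12, RAS and MAP kinase 3 to 8 and mannose 6-phosphate sorting 2 to 9. The causes were not tested.

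Of the 34 pathway genes that the naming rule selects past the threshold 26 kept their call under every alternative and 0 changed direction. With the replicate block the adjusted p was 0.0614 for Itga5, 0.0595 for Stat5a, 0.0698 for Inpp5d, 0.0671 for Spred1, 0.0602 for Braf, 0.0806 for Gnptg and 0.15 for Gnptab. Of the 22 not past it, these changed sign. Under quantile normalization Cd93 was at -0.17, Rack1 at -0.28, Crk at -0.01 and Nras at -0.06. No count test (edgeR or DESeq2) is reported among the alternatives. Without both libraries numbered 3 Akt1 was at 0.0027 and Foxo3 at -0.03. With 1 library left out, Rack1 ran from -0.04 to 0.12, Crk from -0.03 to 0.02, Tsc2 from -0.04 to 0.02, Nras from -0.02 to 0.09 and Foxo3 from -0.03 to 0.03. Depth limited Igfbp3, Igfbp7 and Irs1, with 18 or fewer reads per library.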
